A study of Homo sapiens with 40 samples.

Results

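Chromatin at the genes of the Rb and E2F families was compared between the senescent and the non-senescent state of EndoC-βH3 cells. The 10 genes were the pocket proteins RB1, RBL1 and RBL2 and the E2F factors E2F1, E2F2, E2F3, E2F4, E2F5, E2F7 and E2F8, of 19676 protein-coding genes in GENCODE 44. They were chosen by name. Each was given the peaks that lay within 2 kb of one of its start sites, in its gene body, or nearest to it within 100 kb. This gave 28 of 51489 H3K27ac peaks and 27 of 51457 CTCF peaks, and all 10 genes had at least 1 peak of each kind. EndoC-βH3 is a human beta-cell line of fetal origin that grows in culture because it carries 2 transgenes, hTERT (telomerase) and the viral oncoprotein Large T of SV40. Large T disables p53 and the pocket proteins. The genotype of the line is labelled WT. The senescent cells were treated with 4-hydroxytamoxifen (4-OHT) for 3 weeks, which activates a CreER recombinase that removes both transgenes, and the non-senescent cells were labelled as control. The line is a single line with viral and telomerase transgenes, so the 2 states differ in Large T as well as in senescence, and the drug and the excision cannot be told apart. H3K27ac (an acetylated histone found at promoters and enhancers in use) and CTCF (a protein that anchors chromatin loops) were each measured by ChIP-seq in 3 senescent and 3 non-senescent libraries. H3K4me1 and Rb were each measured in 2 and 2, and with the inputs the series held 40 libraries.

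Pocket proteins bind E2F factors and silence the genes that E2F drives, which include the enzymes of DNA replication. Cyclin-dependent kinases phosphorylate pocket proteins and release E2F, and inhibitors such as p21 (CDKN1A) and p16 (CDKN2A) stop those kinases. E2F1, E2F2 and E2F3 are known as activators that pair with RB1, E2F4 and E2F5 as repressors that work with RBL1 (p107) and RBL2 (p130) in resting cells, and E2F7 and E2F8 as repressors that bind DNA without a pocket protein. RBL2 is the pocket protein of quiescent cells, where it forms the DREAM complex with E2F4. Large T binds all members of the pocket family.

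Each value below is the authors' deposited value over the 3 and 3 libraries, since the tables hold no value per library. Fold changes are log2 values of the senescent over the non-senescent state, and intervals are 95%, from the standard error (SE) of the authors' DESeq2 model. Gained and lost mean an adjusted p under 0.05 for H3K27ac or 0.2 for CTCF and a change above 1.5-fold. The labels number the replicates but do not say that they were separate cultures, so the p-values measure the spread between these libraries, which may be technical. The median SE was 0.15 over the H3K27ac peaks and 0.29 over the CTCF peaks of the 10 genes, so that CTCF changes were measured less precisely. A lower signal can come from fewer cells that carry the mark or from less of it per cell, and the 2 cannot be told apart. As a check of the labelled state, the promoter of MKI67, a proliferation marker, was lost (log2 fold change -2.29) and that of CDKN1A was gained (2.50). H3K27ac promoter peaks were present at 12 of 12 beta-cell markers, the other-endocrine marker SST (not GCG or PPY), 1 of 4 acinar (CPA1), 1 of 3 ductal (KRT19), 0 of 3 fibroblast and 1 of 3 blood and endothelial markers (CD68). Of the 12 beta-cell markers, 1 was gained (IAPP) and 0 were lost by DESeq2, against 3.15% and 8.94% of all gene promoters. At an unadjusted p under 0.05, 6 were higher, IAPP among them, and 2 were lower. SST (-0.86) and KRT19 (-0.74) were lost.

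Sequences upstream of the start sites are shown first, because the promoters below split into lost and not lost. They are RefSeq promoter windows on GRCh38.p14, and 8 of the 10 genes had an entry, all but E2F5 and E2F8. The RB1 entry belonged to an internal start site, so 7 genes had an entry whose start lay in the H3K27ac promoter peak. The E2F word was searched as TTTCCCGC, TTTCGCGC, TTTGGCGC or TTTGCCGC on both strands of the 300-base window, a choice made with these sequences in view. It was found in 3.31% of the 35116 promoters in the table and in 4 of the 7 genes, RBL1, E2F1, E2F2 and E2F3. RBL1 and E2F1 held 2 matches each, and in E2F1 they began 33 and 20 bases before the start site. The single matches of E2F2 and E2F3 began 42 and 53 bases before it. E2F4, E2F7 and RBL2 held none, which says only that these letters are not in this window. The words TTTGAA and TTCGAA, the CHR element of cell-cycle promoters, were in 16.4% of all promoters and in 2 of the 7 genes, E2F3 and RBL2. The 250 bases before the canonical start are printed below, 5′ to 3′ along the gene and with E2F words in capitals, for the lost promoters (RBL1, E2F1, E2F2, E2F7) and for 2 that were not lost (E2F3, E2F4).
RBL1 (chr20:37095998-37096247, minus strand): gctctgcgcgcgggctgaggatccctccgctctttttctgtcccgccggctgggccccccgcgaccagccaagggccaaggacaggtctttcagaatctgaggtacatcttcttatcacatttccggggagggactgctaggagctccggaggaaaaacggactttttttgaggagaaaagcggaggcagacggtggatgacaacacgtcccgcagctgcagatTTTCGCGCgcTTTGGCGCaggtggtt
E2F1 (chr20:33686386-33686635, minus strand): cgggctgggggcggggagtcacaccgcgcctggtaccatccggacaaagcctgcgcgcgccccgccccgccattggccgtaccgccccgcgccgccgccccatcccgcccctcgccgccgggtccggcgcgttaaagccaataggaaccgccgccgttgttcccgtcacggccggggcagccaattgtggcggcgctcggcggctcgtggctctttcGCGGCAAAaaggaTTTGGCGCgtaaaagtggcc
E2F2 (chr1:23531234-23531483, minus strand): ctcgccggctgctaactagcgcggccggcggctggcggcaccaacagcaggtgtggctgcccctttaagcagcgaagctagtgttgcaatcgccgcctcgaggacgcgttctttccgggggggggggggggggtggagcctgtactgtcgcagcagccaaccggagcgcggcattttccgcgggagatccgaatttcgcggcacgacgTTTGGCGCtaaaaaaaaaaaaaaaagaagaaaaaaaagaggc
E2F7 (chr12:77065570-77065819, minus strand): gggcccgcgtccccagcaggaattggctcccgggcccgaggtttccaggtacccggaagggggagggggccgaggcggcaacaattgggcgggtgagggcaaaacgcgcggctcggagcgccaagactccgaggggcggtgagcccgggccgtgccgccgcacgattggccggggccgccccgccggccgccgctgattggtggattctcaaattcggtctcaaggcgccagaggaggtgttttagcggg
E2F3 (chr6:20401629-20401878, plus strand): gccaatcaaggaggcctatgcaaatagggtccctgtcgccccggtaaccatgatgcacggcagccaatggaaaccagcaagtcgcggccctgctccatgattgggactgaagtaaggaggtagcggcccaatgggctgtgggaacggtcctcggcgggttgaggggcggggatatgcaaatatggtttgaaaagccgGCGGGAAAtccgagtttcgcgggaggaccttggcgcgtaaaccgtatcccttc
E2F4 (chr16:67191905-67192154, plus strand): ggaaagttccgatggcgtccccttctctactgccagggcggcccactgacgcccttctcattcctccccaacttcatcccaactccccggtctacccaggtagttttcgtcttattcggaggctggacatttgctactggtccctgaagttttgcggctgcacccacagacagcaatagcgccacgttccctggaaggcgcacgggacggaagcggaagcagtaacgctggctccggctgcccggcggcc

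To ask how the promoters of the 2 families changed, each gene was represented by its H3K27ac promoter peak with the highest mean count. For all 10 genes that peak lay over the canonical start site. Of the 10 promoters, 5 were lost (E2F8, E2F2, RBL1, E2F7 and E2F1), against 8.94% of 13059 gene promoters, and 1 was gained (RBL2), against 3.15%. The median over the 10 was -0.52, where the median over all gene promoters was 0.04. The quartiles of all promoters were -0.19 and 0.22, and 6 of the 10 lay below the lower one and 2 (E2F5 and RBL2) above the upper one. All but the promoters of RB1 and E2F4 passed the adjusted p, and E2F3 and E2F5 passed it without reaching 1.5-fold.

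**Figure D1:**
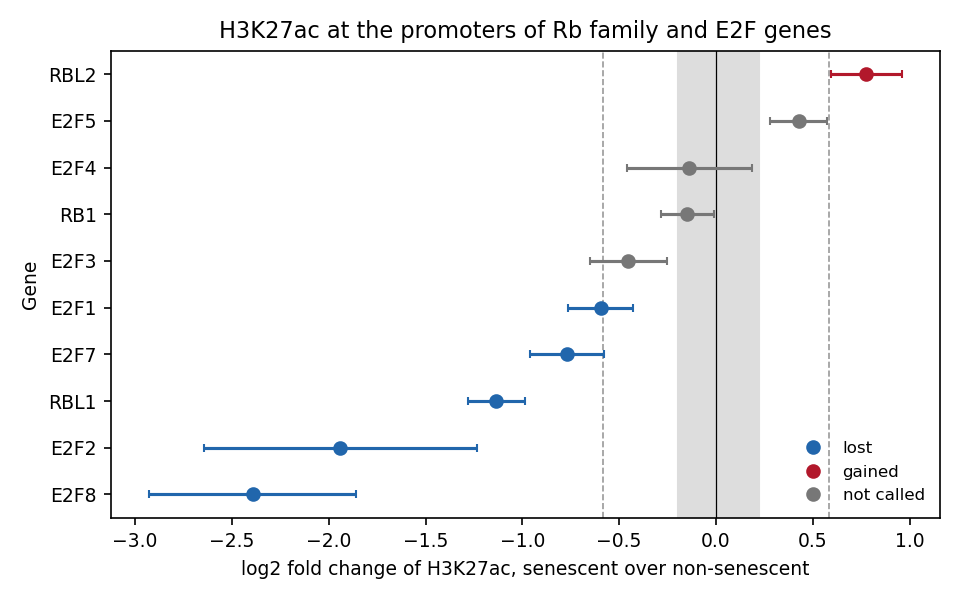
H3K27ac log2 fold change (senescent over non-senescent, x axis) at the promoter peak of each gene (y axis), with 95% intervals from the deposited standard errors of 3 and 3 libraries. Dashed lines mark a 1.5-fold change and the grey band the quartiles of all 13059 gene promoters. The 5 lost promoters lie between -2.39 and -0.60 and RBL2 at 0.78 is the gained one.

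Among the pocket proteins, the 3 genes moved differently. RBL1, which encodes p107, had a promoter peak of 3619 bp at chr20:37093944-37097562, over its start site and first exon, with a mean of 1094 normalized counts. It fell by 1.13 on the log2 scale (SE 0.075, adjusted p 1.65e-48), a decrease of 2.19-fold, and ranked 381 of 13059 from the lowest. RBL2, which encodes p130, rose by 0.78 (SE 0.094, adjusted p 3.62e-15) at chr16:53433593-53436636, an increase of 1.71-fold and rank 184 from the highest. RB1, at chr13:48302461-48305984, had a log2 fold change of -0.15 (interval -0.28 to -0.01) and an adjusted p of 0.078, so no change was called. It had the highest level of the 10 promoters, 413 counts per kb of peak, above 94.1% of all gene promoters. The intervals of RBL1, RB1 and RBL2 did not overlap each other. A long noncoding transcript starts within the RBL1 peak and the divergent transcript RB1-DT within that of RB1, so their signal cannot be separated from that of the genes.

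Among the activators, E2F2 had the largest change. Its peak was short, 793 bp at chr1:23530657-23531449 over the start site and first exon, and held 34.9 counts on average. It fell by 1.94 (SE 0.36, adjusted p 6.38e-07), a decrease of 3.84-fold, and its rank was 44 of 13059 from the lowest. E2F1, at chr20:33683827-33687480, fell by 0.60 (SE 0.086, adjusted p 6.7e-11), a decrease of 1.51-fold that passed the minimum by a small margin. With the trend of fold change over GC content removed, E2F1 had a value of -0.54 and was no longer called. E2F3, at chr6:20400767-20404826, had a value of -0.45 (SE 0.10, adjusted p 4.99e-05), a 1.37-fold decrease that was not called. The intervals of E2F1 and E2F3 overlapped, so a difference between these neighbours was not resolved. Within E2F1, 2 intronic peaks 3.41 and 4.43 kb along the gene had values of -0.80 each and were not called. They held only 25.3 and 31.4 counts, with intervals of -1.66 to 0.06 and -1.50 to -0.10.

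Of the repressors that pair with pocket proteins, neither promoter was called. E2F4, at chr16:67191433-67193063, had a value of -0.14 (SE 0.17, adjusted p 0.54), with an interval of -0.46 to 0.19. E2F5, at chr8:85175401-85179710, was higher by 0.43 (SE 0.075, adjusted p 1.29e-07), which is 1.34-fold and below the minimum. The interval of E2F5 overlapped neither that of E2F4 nor that of RBL2. E2F5 shares its promoter peak with the divergent transcript E2F5-DT. The repressors that act without a pocket partner were both lost. E2F8, at chr11:19240467-19241974 with 75.7 counts, fell by 2.39 (SE 0.27, adjusted p 7.91e-17), a decrease of 5.25-fold and rank 7 of 13059 from the lowest. E2F7, at chr12:77062628-77067005 with 511 counts, fell by 0.77 (SE 0.097, adjusted p 6.79e-14), a decrease of 1.71-fold. When tested against a 1.5-fold change in place of no change, E2F8, E2F2 and RBL1 were still called lost, and E2F7, E2F1 and RBL2 were not called.

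The deposited mean and fold change imply an approximate level in each state, here per kb of peak so that genes can be compared. E2F8 went from 84.3 to 16.1 counts per kb and E2F2 from 69.8 to 18.2. These were the lowest promoters of the 10 in both states. RBL1 went from 415 to 189 counts per kb, E2F1 from 252 to 167 and E2F7 from 147 to 86.3. RBL2 went the other way, from 167 to 287, so that RBL1 was the higher of the pair before senescence and RBL2 after it. RB1 stood at 434 and 392 and was the highest in both states, with E2F5 close to it in senescent cells at 388. Loss was more common among weakly marked promoters. With gene promoters split by mean count per kb into 10 groups, 33.5% were lost in the lowest group, which held E2F8 and E2F2, and 1.84% in the group of RBL1 and E2F5. The level moves with the result for E2F8 and E2F2, and its part in the result was not tested.

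**Figure D2:**
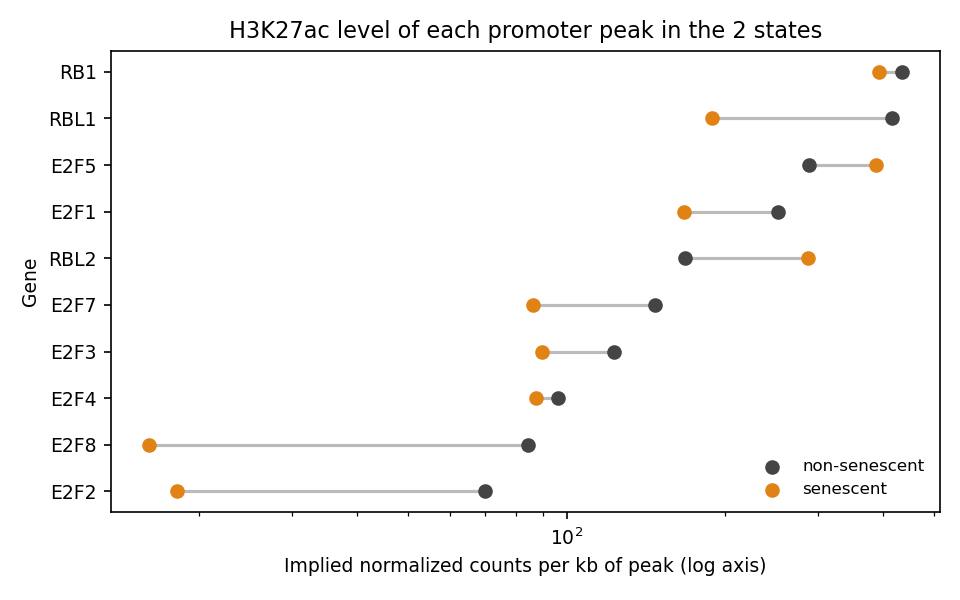
Implied H3K27ac level in normalized counts per kb of peak (x axis, log scale) of the promoter peak of each gene (y axis) in non-senescent cells (dark points) and senescent cells (orange points), from the deposited mean and fold change and with no error drawn. E2F8 and E2F2 lie lowest, at 84.3 and 69.8 before and 16.1 and 18.2 after, and the RBL1 and RBL2 points change order.

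Promoters of the neighbouring genes were compared to see whether a whole region moved. For each of the 10 genes, the next protein-coding gene on each side with a separate H3K27ac promoter peak was taken, 20 in all. The peaks of NECAB3, ELMO3 and RCBTB2 among them also count as gene-body peaks of E2F1, E2F4 and RB1. Of these 20, 4 were lost, against 8.94% of all gene promoters, and 0 were gained by DESeq2, against 3.15%. At an unadjusted p under 0.05, 3 were higher, while the 4 lost ones, PXMP4 and ID3 were lower. The median of the 20 was 0.03. RBL1 had neighbours SAMHD1 (-0.20) and RPN2 (0.06), E2F1 had NECAB3 (0.09) and PXMP4 (-0.24), and E2F2 had ASAP3 (-0.23) and ID3 (-0.41), none of them called. RBL2 had CHD9 (0.15) and AKTIP (0.01), also not called. The lost neighbours were NAV2 beside E2F8 (-1.71, 522 kb away), CSRP2 beside E2F7 (-1.07, 187 kb), MBOAT1 beside E2F3 (-1.42, 190 kb) and LRRCC1 beside E2F5 (-1.28, 79.7 kb). LRRCC1 was thus lost in the region where the E2F5 promoter had 0.43.

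Beyond the promoters, H3K27ac was examined in introns and distal peaks. Over all 28 peaks of the 10 genes, 6 were lost, or 21.4%, against 13.1% of all H3K27ac peaks. Another 2 were gained, or 7.14%, against 9.47% of all peaks, which is near the background. The 15 gene-body peaks had a median of 0.16 and the 3 that were nearest to a gene had -0.33, where the 10 promoter peaks had -0.52. Of the 15, 7 lay in the RB1 gene model beyond its canonical transcript, and others covered start sites of neighbouring genes. The gene-body median is thus in large part that of other genes, and no median over all gene-body peaks was taken. Of the 6 lost peaks, 5 were promoters. The gained peak outside a promoter was in an intron of E2F5, at chr8:85191563-85192631 and 14.4 kb from the canonical start. It held 61.5 counts and rose by 1.90 (SE 0.28, adjusted p 2.44e-10), or 3.74-fold. It lay in an enhancer of the senescent list alone, and that list was itself drawn in part from H3K27ac. With the promoter at 0.43, the other E2F5 peaks had values of 0.16 and 0.44, on 28.6 and 15.4 counts with intervals that spanned 0. Gene-body peaks of E2F1 and E2F4 also covered the start sites of NECAB3 (0.09) and ELMO3 (0.24), and peaks 59.8 kb upstream of RBL2 (0.03) and 54.4 kb along from the E2F7 start (-0.50, on 26.7 counts) were not called.

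The remaining lost peak was assigned to RB1 by the rule, although its place in the annotation is ambiguous. The GENCODE 44 gene model of RB1 runs to 48599436 on chromosome 13, while its canonical transcript ends at 48481890. Of the 8 H3K27ac peaks in the model, 7 lay beyond that end, and their nearest start site belonged to RCBTB2 or CYSLTR2. The lost one (chr13:48504889-48508697, -0.66, SE 0.093, adjusted p 1.79e-11) was 24383 bp from the RCBTB2 start and overlapped enhancers of both lists. The peak that followed it, at chr13:48509817-48512206, was higher by 0.582 (adjusted p 0.00011), just under the minimum of 0.585, and also lay in enhancers of both lists. With canonical transcripts in place of gene models, 5 peaks of the 10 genes were lost and 2 gained.

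**Figure D3:**
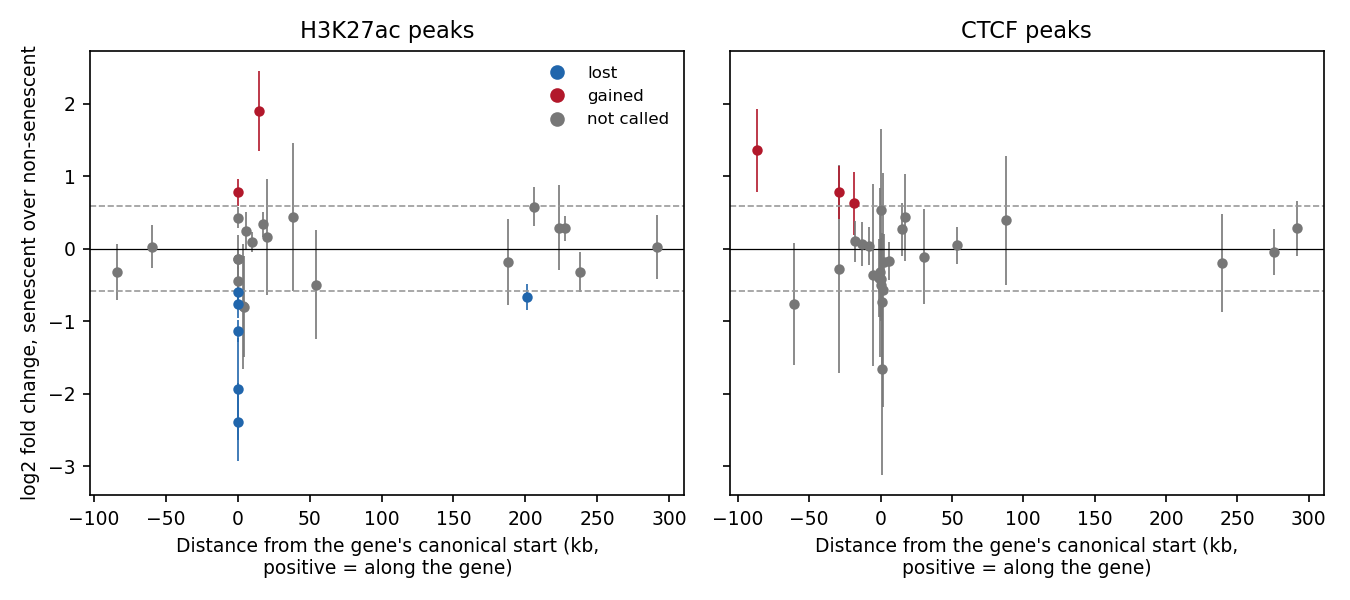
Log2 fold change (y axis, with 95% intervals) of every H3K27ac peak (left, 28) and CTCF peak (right, 27) of the 10 genes against its distance from the canonical start of its gene in kb (x axis, positive along the gene). Lost H3K27ac peaks gather at 0 kb except the one at 201 kb in the RB1 gene model, and the 3 gained CTCF peaks lie 18.4 to 86.8 kb upstream.

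Enhancers were taken from the authors' lists, 14886 regions for non-senescent and 13076 for senescent cells. By the methods, an enhancer was a region outside promoters where H3K27ac and H3K4me1 overlapped. Membership in the list of 1 state is thus not independent of the H3K27ac change. Of the 28 H3K27ac peaks, 7 overlapped a listed enhancer, or 25%, against 33.3% of all H3K27ac peaks. They belonged to RB1 (3, all beyond the canonical transcript), E2F7 (3) and E2F5 (1), and 4 overlapped both lists, 2 the non-senescent list alone and 1 the senescent list alone. E2F7 held both patterns. Its promoter peak and a peak 83.8 kb upstream (-0.33, not called) overlapped the non-senescent list alone. The promoter peak did so through a 775 bp region near its edge, 2099 bp from the nearest E2F7 start site. The E2F7 peak in both lists, at chr12:77044351-77048353 and 17.2 kb along the gene, was higher by 0.33 (SE 0.085, adjusted p 0.00042) and short of 1.5-fold. The E2F7 promoter and this peak thus had values of opposite sign, the first called and the second not. RBL1, RBL2, E2F1, E2F2, E2F3, E2F4 and E2F8 had no listed enhancer under the rule.

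Rb binding at its own gene family was examined with the list of 2435 senescence-specific Rb regions. It held 0 regions at the 10 genes. Rb regions lay at the promoters of 308 protein-coding genes, or 1.57%, so 0 of 10 genes is near the background and says little about Rb at these promoters. The nearest Rb region to a canonical start was 367 kb away at E2F2, 371 kb at E2F4 and 661 kb at E2F1, and it was 3994 kb away at RB1. The list holds positions alone. By the methods its regions were called in senescent against non-senescent samples, so binding that was the same in both states would not be in it.

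CTCF was examined at the same genes. Of the 27 peaks, 20 had an adjusted p in the authors' table, and of these 3 were gained, or 15.0%, against 2.99% of all CTCF peaks with an adjusted p. By DESeq2, 0 were lost, against 4.28% of all, and 2 were lower at an unadjusted p under 0.05. The gained peaks lay upstream of RBL2, E2F5 and E2F7, and each was assigned as nearest to its gene and outside the gene body. The RBL2 peak (chr16:53414992-53416086, 18.4 kb upstream, 111 counts) rose by 0.63 (SE 0.22, adjusted p 0.082). The E2F5 peak (chr8:85147018-85148217, 28.9 kb upstream, 176 counts) rose by 0.78 (SE 0.19, adjusted p 0.0052). The E2F7 peak (chr12:77152360-77153419, 86.8 kb upstream, 80.8 counts) rose by 1.36 (SE 0.29, adjusted p 0.00099), or 2.56-fold. With the trend over GC content removed, E2F7 was still called at 1.13, and RBL2 and E2F5 were not, at 0.53 and 0.55. Tested against a 1.5-fold change, 0 of the 3 were called. The E2F7 peak lay 0.98 kb from the distal H3K27ac peak described above (-0.33, not called), while RBL2 and E2F5 had no H3K27ac peak nearer to theirs than their own promoters.

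**Figure D4:**
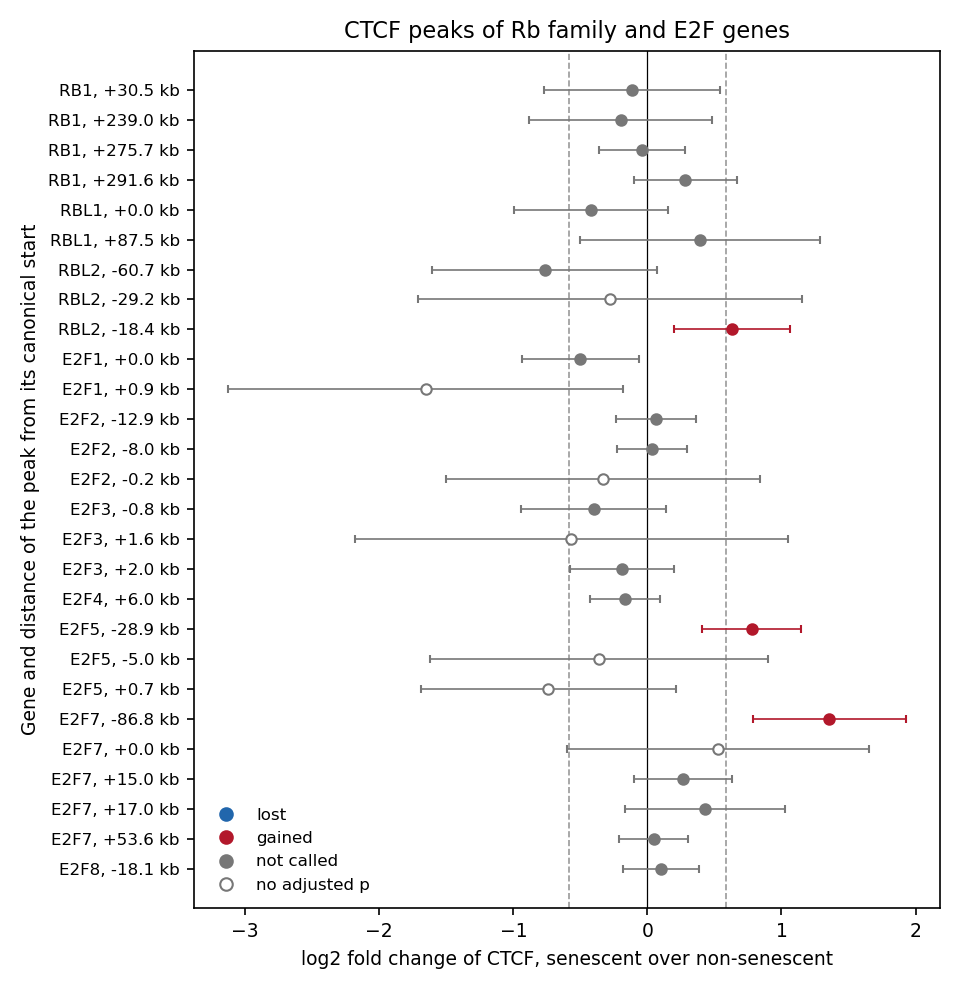
CTCF log2 fold change (x axis, with 95% intervals from the deposited standard errors of 3 and 3 libraries) of each of the 27 CTCF peaks, named by gene and distance from the canonical start in kb (y axis). Open points had no adjusted p, dashed lines mark 1.5-fold, and the 3 gained peaks at 0.63, 0.78 and 1.36 are in red.

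CTCF promoter peaks were present at 6 of the 10 genes (RBL1, E2F1, E2F2, E2F3, E2F5 and E2F7), and by the peak with the highest mean count DESeq2 called 0 of them, with E2F1 alone at an unadjusted p under 0.05. Of the 6, 4 had an adjusted p, and among all gene promoters with one 0.585% were gained and 5.49% lost, so 0 calls is near the background. Their median was -0.38, where the median of 9366 gene promoters with CTCF was -0.17, so CTCF promoter values in this table sit below 0 as a class. RBL1 had -0.42 (SE 0.29), E2F3 -0.19 (SE 0.20) and E2F2 -0.33 (SE 0.60, on 13.7 counts and with no adjusted p). For E2F1, whose CTCF peak covers the start site, the value was -0.50, and it was -0.21 with the GC trend removed. The DESeq2 adjusted p of this E2F1 peak, 0.19, was under the limit of 0.2, and its 1.41-fold decrease fell short of 1.5-fold. A second E2F1 promoter peak, 0.898 kb along the gene, had -1.65 (interval -3.13 to -0.18). It held 8.56 counts and had no adjusted p. In E2F7 the stronger promoter peak stood at an internal start site 15.0 kb along the gene (0.27, SE 0.19). CTCF peaks near E2F2 and E2F8 were among the strongest and were not called, with 0.03 and 0.07 at 7.99 and 12.9 kb upstream of E2F2 and 0.10 (interval -0.18 to 0.38) upstream of E2F8. Of the 27 CTCF peaks, 15 overlapped an H3K27ac peak of the same gene, and in 10 of these both fold changes had the same sign. The share over all overlapping peaks was not computed, so this count has no background here. Several CTCF peaks shared the same H3K27ac peak at E2F1 and E2F3, and the overlap at E2F2 was 31 bp. The RBL1, E2F1, E2F2 and E2F3 promoters had negative values for both CTCF and H3K27ac. The lost E2F7 promoter did not. A CTCF peak over its canonical start had 0.53 (interval -0.60 to 1.65) where H3K27ac was -0.77. That CTCF peak held 14.6 counts and had no adjusted p. At the E2F5 promoter CTCF was -0.74 (interval -1.69 to 0.21, on 17.4 counts and with no adjusted p) where H3K27ac was 0.43.

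The core of the CTCF motif, allowing 1 mismatch, was in 10 of the 27 peaks and in 47.2% of all CTCF peaks in the table. An exact match was in 1 of the 27, the peak 18.1 kb upstream of E2F8, and in 13.5% of all CTCF peaks. Of the 3 gained peaks, the one upstream of RBL2 held a core and those upstream of E2F5 and E2F7 held none. Reference windows of 40 bases around the core are printed from hg38 with the 12 core bases in capitals, for the gained RBL2 peak, for the promoter peak of E2F1 and for the E2F8 peak, which was not called.
RBL2 upstream (chr16:53415589-53415628, minus strand): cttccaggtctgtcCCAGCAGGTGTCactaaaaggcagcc
E2F1 promoter (chr20:33686625-33686664, minus strand): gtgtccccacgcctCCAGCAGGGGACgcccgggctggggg
E2F8 upstream (chr11:19259908-19259947, plus strand): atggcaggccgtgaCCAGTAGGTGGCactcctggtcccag

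Other genes of the pathway were counted in 3 lists, each gene by its H3K27ac promoter peak with the highest mean count. Genes beyond the 4 with the smallest adjusted p in a list were named after their values were seen. Among regulators of Rb, 12 of 15 genes had such a peak, with 2 gained, 4 lost and a median of -0.24. Over all gene promoters 3.15% were gained and 8.94% lost, with a median of 0.04. CDKN1A (p21) rose by 2.50 (SE 0.16, adjusted p 5.09e-54) and CDKN1C (p57), also a CDK inhibitor, by 0.60 (SE 0.069). CCNE2, an E-type cyclin that activates CDK2, fell by 1.29 (SE 0.11) and CDKN2D (p19), an inhibitor of CDK4 and CDK6, by 1.14 (SE 0.12). The other 2 lost promoters were CDK6 (-0.71) and CDK2 (-0.69). CDKN2A had -0.16 and was not called, and CCND1, CCND2 and CCNE1 had no H3K27ac promoter peak.

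Partners of E2F and pocket proteins had 10 of 10 promoters with a peak, of which 3 (against 8.94% of all gene promoters) were lost and 0 (against 3.15%) gained by DESeq2 (1 was higher at an unadjusted p under 0.05), with a median of -0.32. The lost genes were LIN9 (-1.30, SE 0.16), a subunit of the MuvB core, and MYBL1 (-0.79, SE 0.13) and MYBL2 (-1.64, SE 0.38), of which MYBL2 joins MuvB in dividing cells. TFDP1 (-0.23) and TFDP2 (-0.14), the dimer partners of E2F, were not called. Of the 23 E2F target genes, all had a promoter peak, 13 (against 8.94% of all gene promoters) were lost and 0 (against 3.15%) gained by DESeq2 (1 was higher at an unadjusted p under 0.05), and the median was -0.93. The lost targets with the smallest adjusted p were EZH2, a histone methyltransferase (-1.03, SE 0.082), CCNA2, the S-phase cyclin (-1.69, SE 0.14), CDK1, the mitotic kinase (-1.44, SE 0.12), and RRM2, a subunit of ribonucleotide reductase (-1.81, SE 0.15). PCNA, the sliding clamp, had 0.40 and was not called. At promoters with CTCF, 1 of 15 targets was gained (CDC6, 1.10), and 2 were higher and 2 lower at an unadjusted p under 0.05. Of 5 partners, 1 was lost (LIN54, -0.82) and 3, LIN54 among them, were lower at that unadjusted p. By DESeq2, 0 of 11 regulators were called (5 were lower at an unadjusted p under 0.05). No adjusted p was given for 3 targets, 1 partner and 1 regulator. Over all CTCF gene promoters with an adjusted p, 0.585% were gained and 5.49% lost. Rb regions lay at the promoters of 2 of the 23 targets, CDT1 (-1.37) and CDK1. They lay at 0 of 15 regulators and 0 of 10 partners, against 1.57% of all protein-coding genes.

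**Figure D5:**
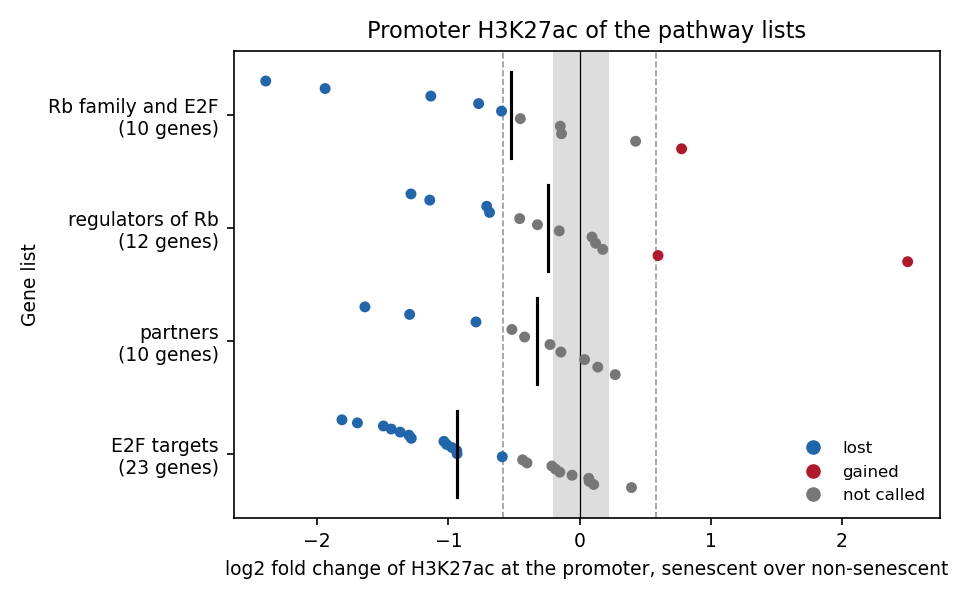
H3K27ac log2 fold change at the promoter (x axis) of each gene (points) in the Rb and E2F families and in 3 pathway lists (y axis), with the median of each as a black bar, the quartiles of all gene promoters in grey and 1.5-fold as dashed lines. Medians are -0.52, -0.24, -0.32 and -0.93 from top to bottom, and 13 of the 23 E2F targets are lost.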

How the data were processed

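ChIP-seq libraries of EndoC-βH3 cells were assigned to antibody and state by their labels. The methods say that the authors used Trim Galore for trimming and Bowtie2 for alignment to hg38, called H3K27ac peaks with HOMER and CTCF and Rb peaks with MACS2, and compared raw counts in peaks with DESeq2. Tool versions and the merging of replicates were not given in the sources used here. The deposited tables hold, per peak, a mean signal (read counts divided by size factors, averaged over 6 libraries), a log2 fold change with its standard error, a Wald score and p-values, and the region lists hold positions. Size factors centre the typical peak, so a global change of a mark is invisible. The methods state that CTCF peaks were filtered for a motif, and a different scan was used here. The 4-OHT dose differs between labels and methods and is not given.

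A count test had been planned for the case of counts per library, and none were in the tables, so the authors' deposited p-value and log2 fold change were used at the study's thresholds and no model was refitted. These columns are the authors' own comparison of the 2 states. The depth of single libraries is unknown here. The Wald score was the log2 fold change over its SE throughout. Implied levels are 2 × mean / (1 + fold) for non-senescent cells and fold times that for senescent cells. Promoters were windows of 2 kb around protein-coding transcript starts (GENCODE 44, hg38), overlaps were at least 1 bp, and nearest start sites were among protein-coding genes. The text names all 10 genes, their promoter peaks and called peaks, and, by the rule, up to 4 called genes per pathway list by smallest adjusted p. Further list genes were named after their values were seen. The genes, lists and thresholds were chosen with earlier results of these data known. The alternatives were other p and fold limits, a test against 1.5-fold, a minimum of 50 counts, removal of the GC trend (medians in 50 bins), promoter centring and other membership rules. The calling code was tested on simulated data. One cell type marker is not reported here. Python 3.11.15, pandas 2.3.3, numpy 2.4.6, scipy 1.17.1 and matplotlib 3.10.9 were used.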

Additional observations from a re-analysis of the deposited data

How the results depend on the processing

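No paired analysis was possible because the tables hold no values per library, and for the same reason leaving out single replicates was not run. H3K27ac gained peaks numbered 2, with 1 at a fold above 2, 1 when tested against 1.5-fold and 6 with no minimum fold. H3K27ac lost peaks numbered 6, with 3 at a fold above 2 and 3 when tested against 1.5-fold. CTCF gained peaks numbered 3, with 1 at a fold above 2, 1 with the GC trend removed, 1 with start sites of all gene types, 1 among peaks with a core motif, 0 when tested against 1.5-fold and 0 within promoter windows and gene bodies. CTCF lost peaks numbered 0, and 1 (E2F1) with no minimum fold. Enhancer peaks numbered 7, and 4 with canonical transcript extents, a choice made after the data were seen. The other 43 alternative values of these counts, of the 5 lost promoters and of the promoter median of -0.52 moved by no more than 1.5 times or the median SE. Centring on promoters subtracts their median, 0.03 for H3K27ac and -0.17 for CTCF, from every fold change. Among single peaks, 17 alternative values lost a call, 3 gained one and 0 of the alternatives run reversed a direction. Low counts limit the 7 CTCF peaks without an adjusted p.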
